A study of Schizosaccharomyces pombe with 15 samples.

Results

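Heat shock was set directly against hydrogen peroxide (H2O2) in fission yeast, with 3 heat-shocked cultures against 3 H2O2-treated cultures, which are 6 of the 15 libraries of the series. The libraries were chosen by their sample titles, and the comparison covered all 5886 genes and all 13003 start-site clusters of the count tables. The study measured where transcription starts in wild-type Schizosaccharomyces pombe under stress and in different media with CAGE. This method captures capped RNAs and sequences their 5′ ends, so that a tag marks the 5′ end of a capped RNA, taken here as a start site. All cultures used here were labelled wt, strain h-S 972, and were grown as triplicate liquid cultures at 30 °C in rich medium. Heat-shocked cultures were moved to 39 °C for 15 min. H2O2 cultures stayed at 30 °C and received 0.5 mM H2O2 for 15 min. A further 3 unstressed cultures at 30 °C, called YES here after their medium, gave the level before stress. For the stressed cultures the labels use both YES and YEL as the name of the medium.

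Heat unfolds proteins and activates Hsf1, a transcription factor that binds heat shock elements, which are repeats of the letters GAA in alternating orientation, and that drives genes for chaperones. Peroxide oxidises cysteines and lipids, and fission yeast answers it through Pap1, an AP-1-like factor that accumulates in the nucleus once oxidised and drives genes for antioxidants and efflux pumps. Many stresses, including both of these, also activate the mitogen-activated kinase Sty1 and its transcription factor Atf1, which raise a shared set of stress genes.

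The gene totals were 11607432, 16338911 and 17824486 tags in heat replicates 1 to 3, 14384869, 21760682 and 21426198 in H2O2 replicates 1 to 3, and 9665353, 11344265 and 18851713 in YES replicates 1 to 3. Levels are given as tags per 1000000 tags of the library (CPM) after TMM scaling, whose factors were 0.805 to 0.890 in heat, 0.945 to 1.005 in H2O2 and 0.897 to 1.021 in YES. A floor of 3 counts was 0.209 to 0.290 CPM in heat libraries and 0.139 to 0.221 CPM in H2O2 libraries. The first 2 principal components of the 9 libraries held 58.6% and 21.5% of the variance and kept the 3 groups apart. H2O2 replicate 3 stood farthest from the others of its group, with a chi-square per degree of freedom of 128 and 157 against H2O2 replicates 1 and 2, where those 2 gave 30.5. In the heat group replicate 2 did so, with 69.4 and 101 against heat replicates 1 and 3, where those 2 gave 31.2. In YES it was replicate 3, with 68.6 and 52.7 against YES replicates 1 and 2, where those 2 gave 18.2. Genes that mark mating type were low in every group and could not check the h- label, since mat1-Mc of M cells averaged 2.05 CPM after heat, 2.39 CPM after H2O2 and 5 CPM in YES, and map2 of P cells averaged 0.511, 1.75 and 1.9 CPM in the same order.

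Heat and H2O2 left different transcript levels in many genes after the same 15 min, with more genes higher than lower after heat under TMM scaling. Of 5886 genes, 923 were higher and 706 were lower after heat than after H2O2, which is 15.7% and 12% of them, or 27.7% together (edgeR quasi-likelihood test, adjusted p under 0.05). A called difference of at least 1 on the log2 scale was reached by 10.4% of genes, 381 higher after heat (6.47%) and 229 lower (3.89%). The 3 heat libraries and the 3 H2O2 libraries did not overlap in 41% of genes, with heat above H2O2 in 22.6% and below it in 18.4%. In these bulk cultures, a change in the RNA of each cell and a change in the share of cells that respond cannot be told apart. Scaling by library totals alone moved the median log2 difference of all genes from −0.00 to −0.20 and turned the split of calls from 56.7% higher after heat to 31.6%, so each difference below is relative to the median gene under TMM. Against YES, 42.3% of genes were called after heat (22.2% higher, 20.1% lower) and 20% after H2O2 (11.3% higher, 8.78% lower), and these contrasts share the YES libraries. With 3 cultures a group, the p-values weigh each difference against the spread between cultures. That spread was estimated over all 15 libraries, which include minimal-medium and nitrogen-starved cultures outside this comparison.

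**Figure D1:**
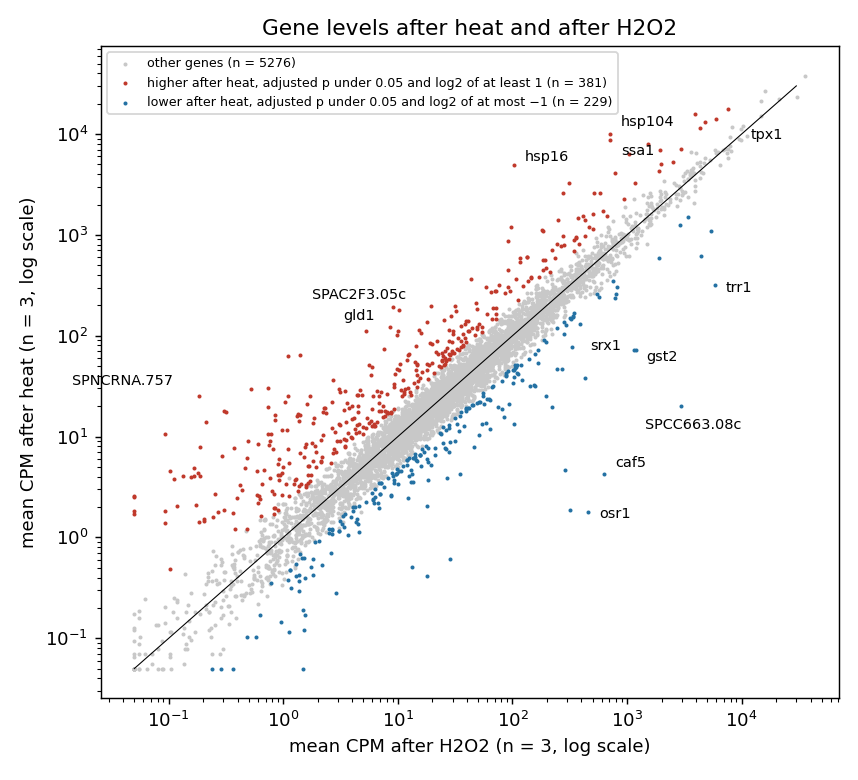
Each point is a gene, with its mean CPM after heat (vertical axis) and after H2O2 (horizontal axis), n = 3 libraries each, on log scales, and means under 0.05 CPM drawn at 0.05. Red points (381 genes) were higher and blue points (229 genes) lower after heat by at least 1 on the log2 scale with an adjusted p under 0.05, and the line marks equal levels. The genes osr1, caf5 and SPCC663.08c lie far below the line, hsp16 far above it, and tpx1 on it.

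Each differing gene was then set against its YES level. Among the genes that differed by at least 1 on the log2 scale, 348 were heat-raised, that is higher after heat than after H2O2 and higher after heat than in YES. H2O2-raised genes numbered 72, heat-lowered genes 115 and H2O2-lowered genes 10. Of the heat-raised genes, 260 were not called after H2O2 against YES and 88 were also called higher there. Of the H2O2-raised genes, 56 were not called after heat against YES and 16 were also called higher there. By kind, 153 of the 348 heat-raised genes (44%) were noncoding RNA genes, against 15 of the 72 H2O2-raised genes (20.8%). They were also 42 of the 115 heat-lowered genes (36.5%) and 5 of the 10 H2O2-lowered genes (50%). Over all 5886 genes, 926 were noncoding RNA genes. A share above that of all genes was thus not particular to the heat-raised class.

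The 348 heat-raised genes held a large part of the heat libraries. They summed to 203000, 205000 and 216000 CPM in heat replicates 1 to 3, to 61500, 62300 and 60100 CPM in H2O2 replicates 1 to 3, and to 36100, 34000 and 38600 CPM in YES replicates 1 to 3. The 72 H2O2-raised genes summed to 5770, 5640 and 6140 CPM in heat, to 31200, 26200 and 28600 CPM in H2O2 and to 4080, 3900 and 3860 CPM in YES. These sums follow from how the classes were chosen and are a description.

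The 12 coding genes with the largest differences towards heat included 3 chaperone genes, which are described first. The gene hsp16 (SPBC3E7.02c, start site II:2660903-2661227, minus strand) encodes a small heat shock protein that holds unfolding proteins, and it had 4310, 5940 and 4590 CPM in heat replicates 1 to 3, 106, 97.6 and 105 CPM in H2O2 replicates 1 to 3, and 87.3, 59.6 and 66.7 CPM in YES replicates 1 to 3. Heat libraries stood far above both other groups, and the H2O2 libraries lay just above the YES libraries. Its log2 difference between heat and H2O2 was 5.59 ± 0.22 (SE; edgeR adjusted p 1.08e-10). The disaggregase gene hsp104 had 9750, 7790 and 12700 CPM after heat, 701, 610 and 808 CPM after H2O2 and 384, 279 and 237 CPM in YES, a log2 difference between heat and H2O2 of 3.84 ± 0.25 (edgeR adjusted p 1.99e-08). The inducible Hsp70 gene ssa1 had 8030, 7970 and 10100 CPM after heat, 786, 799 and 542 CPM after H2O2 and 236, 160 and 158 CPM in YES. It was thus raised by both stresses, and still lay 3.62 ± 0.24 higher on the log2 scale after heat than after H2O2 (edgeR adjusted p 2.19e-08).

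The glycerol dehydrogenase gene gld1 (SPAC13F5.03c, start site I:2176545-2176761, minus strand) had 128, 95.5 and 144 CPM after heat, 9.49, 9.23 and 6.92 CPM after H2O2 and 5.42, 5.34 and 7.48 CPM in YES. H2O2 and YES libraries overlapped, and heat lay 3.84 ± 0.20 above H2O2 (log2; edgeR adjusted p 2.10e-09). SPAC2F3.05c, annotated as a xylose and arabinose reductase, had 206, 175 and 214 CPM after heat, 19.4, 18.7 and 20.5 CPM after H2O2 and 6.35, 5.16 and 4.47 CPM in YES. Its 3 groups did not overlap, so both stresses lay above YES, and heat was above H2O2 by 3.34 ± 0.17 (log2; edgeR adjusted p 1.33e-09). The other coding genes with the largest differences were SPAC23H3.11c (a glucosidase, 4.70), SPAPB24D3.07c (uncharacterized, 3.64), the protein kinase gene ppk31 (3.61), hry1 (3.50), tam11 (3.38), SPBC19C7.04c (3.37) and SPAC4H3.17 (3.28), all as log2 differences between heat and H2O2. SPAC23H3.11c averaged 19.6 ± 1.37 CPM after heat, against 0.730 ± 0.207 CPM after H2O2 and 0.514 ± 0.147 CPM in YES (SD, n = 3 each), and its tags began inside its coding exon rather than at the annotated mRNA start. The only site of SPAC4H3.17 lay antisense to a coding gene, and the main site of ppk31 lay away from annotated mRNA starts. SPAPB24D3.07c and tam11 each had 1 heat library well above the other heat libraries, 1820 CPM against 859 and 922 CPM and 4910 CPM against 2360 and 2490 CPM, in both cases heat replicate 2.

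The DNA upstream of hsp16 and gld1, which are among the coding genes with the largest differences towards heat, carries a heat shock element pair close to each start. SPAC23H3.11c, which ranks between them, was left out because annotated exons cover the DNA upstream of its site. A pair was searched as GAANNTTC or TTCNNGAA, each of which reads the same on both strands. The letters come from RefSeq assembly ASM294v3, run 5′ to 3′ on the strand of the gene and end at the base before the start-site peak, with the matched pair in capitals. They cover II:2660993-2661142 (minus strand) for hsp16 and I:2176573-2176722 (minus strand) for gld1.
hsp16: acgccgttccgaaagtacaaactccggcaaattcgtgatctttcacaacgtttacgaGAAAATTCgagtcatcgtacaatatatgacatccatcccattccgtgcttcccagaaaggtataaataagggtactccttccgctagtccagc
gld1: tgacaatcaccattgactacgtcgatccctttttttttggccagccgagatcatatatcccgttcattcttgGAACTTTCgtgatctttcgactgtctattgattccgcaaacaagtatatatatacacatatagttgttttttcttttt
In the window from 250 bp before to 50 bp after the peak, such a pair lay at 70 of 192 heat-raised coding genes (36.5%), at 8 of 54 H2O2-raised coding genes (14.8%) and at 947 of all 4881 coding genes (19.4%). A match describes letters only.

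**Figure D2:**
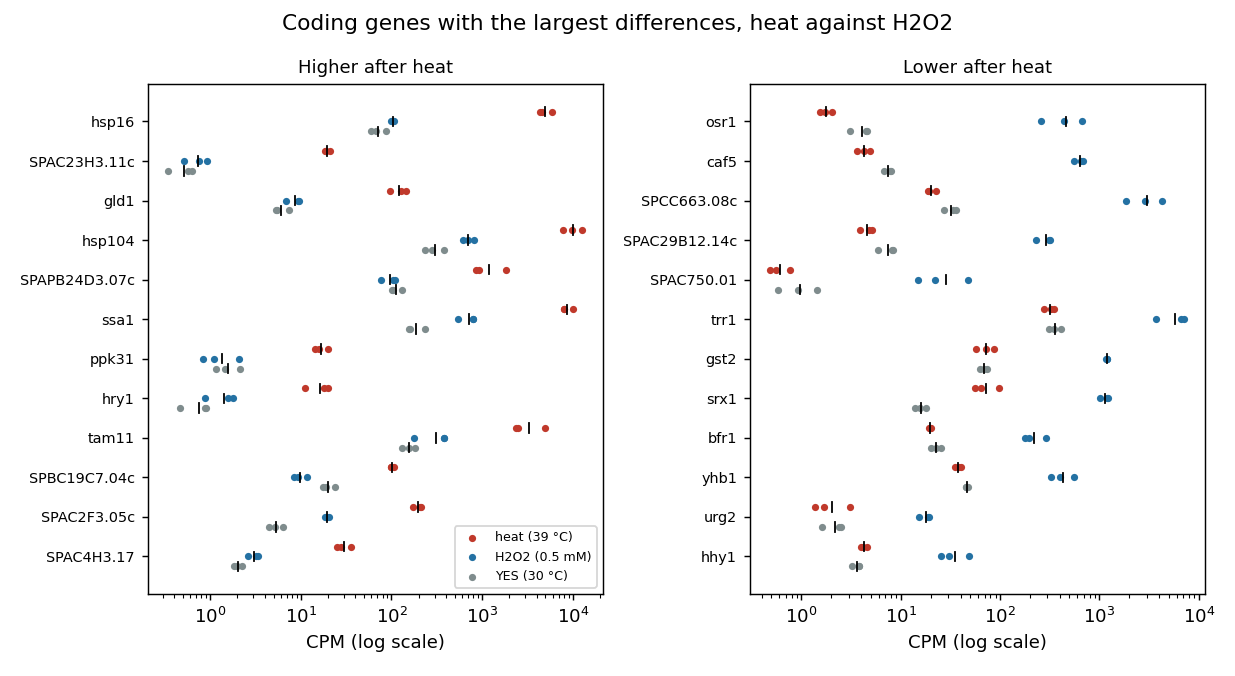
CPM per library on a log scale for the 12 coding genes with the largest differences each way, with heat in red, H2O2 in blue, YES in grey and the mean of each group as a black tick. On the left every heat point lies to the right of every H2O2 point (hsp16 had 4310 to 5940 CPM after heat against 97.6 to 106 CPM after H2O2), and on the right the order is turned round (osr1 had 1.54 to 2.02 CPM after heat against 261 to 668 CPM after H2O2).

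Most chaperone genes of the cytosol were higher after heat. Of 22 genes in that list, 15 were called higher and 1 lower after heat than after H2O2, with a median log2 difference of 1.46, beside 15.7% higher, 12% lower and a median of −0.00 over all genes. The nucleotide exchange factor gene fes1 averaged 2590 ± 233 CPM after heat and 274 ± 37.9 CPM after H2O2 (SD, n = 3 each), a log2 difference of 3.24 (edgeR adjusted p 2.96e-10). The Hsp40 gene psi1 averaged 1110 ± 201 and 180 ± 55.4 CPM in those groups, and the Hsp90 activator gene aha1 4060 ± 841 and 785 ± 22.9 CPM, with log2 differences of 2.63 and 2.37 (edgeR adjusted p 4.17e-06 and 2.57e-07). Hsp90 itself was called with a smaller difference of 1.48, from 13200 ± 2550 CPM after heat and 4740 ± 1460 CPM after H2O2 (edgeR adjusted p 0.000354). The exception was zuo1, which codes for an Hsp40 partner bound to the ribosome and was 0.47 lower after heat (log2; edgeR adjusted p 0.0334). That call was lost without H2O2 replicate 2, heat replicate 1 or heat replicate 2 (adjusted p 0.160, 0.0777 and 0.122). The transcription factor gene hsf1 had 87.7 ± 3.15 CPM after heat and 80.6 ± 1.13 CPM after H2O2, and was not called (edgeR adjusted p 0.492).

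In the list for chaperones and folding in mitochondria and the endoplasmic reticulum, 8 of 16 genes were higher and 2 were lower after heat, with a median of 0.36. The 16 include pim1, which the annotation gives as a Ran exchange factor, the protease genes lon1 and yme1 and the kinase gene ire1, none of them called. The mitochondrial disaggregase gene hsp78 had 813, 924 and 889 CPM after heat, 96.6, 83.0 and 92.1 CPM after H2O2 and 42.2, 35.9 and 41.2 CPM in YES, a log2 difference between heat and H2O2 of 3.27 ± 0.13 (edgeR adjusted p 1.08e-10). The mitochondrial Hsp40 gene mdj1 was higher by 2.48 and the Hsp70 gene bip1 of the endoplasmic reticulum by 1.18 (edgeR adjusted p 6.99e-07 and 1.11e-05). The protein disulfide isomerase gene pdi1 and ero12, an oxidase that recharges it, were lower after heat by 0.53 and 0.60 (edgeR adjusted p 0.00681 and 0.00764), whereas the sister gene ero11 was higher by 0.83 (edgeR adjusted p 0.000562).

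Trehalose and glycerol are small protectants that yeast gathers under stress, and their 12 genes split. After heat 7 were higher and 3 lower than after H2O2, with a median of 0.86. The trehalose synthase gene tps1 averaged 369 ± 5.33 CPM after heat, 144 ± 12.6 CPM after H2O2 and 53.3 CPM in YES (SD, n = 3 each), so that heat lay 1.36 higher than H2O2 (log2; edgeR adjusted p 1.95e-06). The glycerol-3-phosphate dehydrogenase gene gpd1, which makes the precursor of glycerol, averaged 11500 ± 2850 CPM after heat, 4290 ± 747 CPM after H2O2 and 2050 CPM in YES, a difference of 1.43 between the stresses (edgeR adjusted p 0.000113). The list also held gpd3, which the annotation gives as a glyceraldehyde-3-phosphate dehydrogenase of glycolysis, with 1090 ± 123 CPM after heat, 185 ± 2.13 CPM after H2O2 and 203 CPM in YES (2.56; edgeR adjusted p 1.04e-08). The 3 lower genes were dak2, gut2 and plr1, the last a pyridoxal reductase by its annotation. Of these, gut2, a mitochondrial enzyme that consumes glycerol-3-phosphate, had 58.0 ± 6.32 CPM after heat and 107 ± 31.9 CPM after H2O2, against 20.9 CPM in YES. Proteasome and ubiquitin genes were called higher after heat in 11 of 46 cases and lower in none, with a median of 0.17, but under library totals the count was 3 higher and 3 lower with a median of −0.02. The most different of them were san1, a ubiquitin ligase for misfolded nuclear proteins (1.01), ubi4, which codes for polyubiquitin (0.89), and the segregase gene cdc48 (0.77). The call of san1 was lost without H2O2 replicate 2 or heat replicate 1 (adjusted p 0.0501 and 0.0613).

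**Figure D3:**
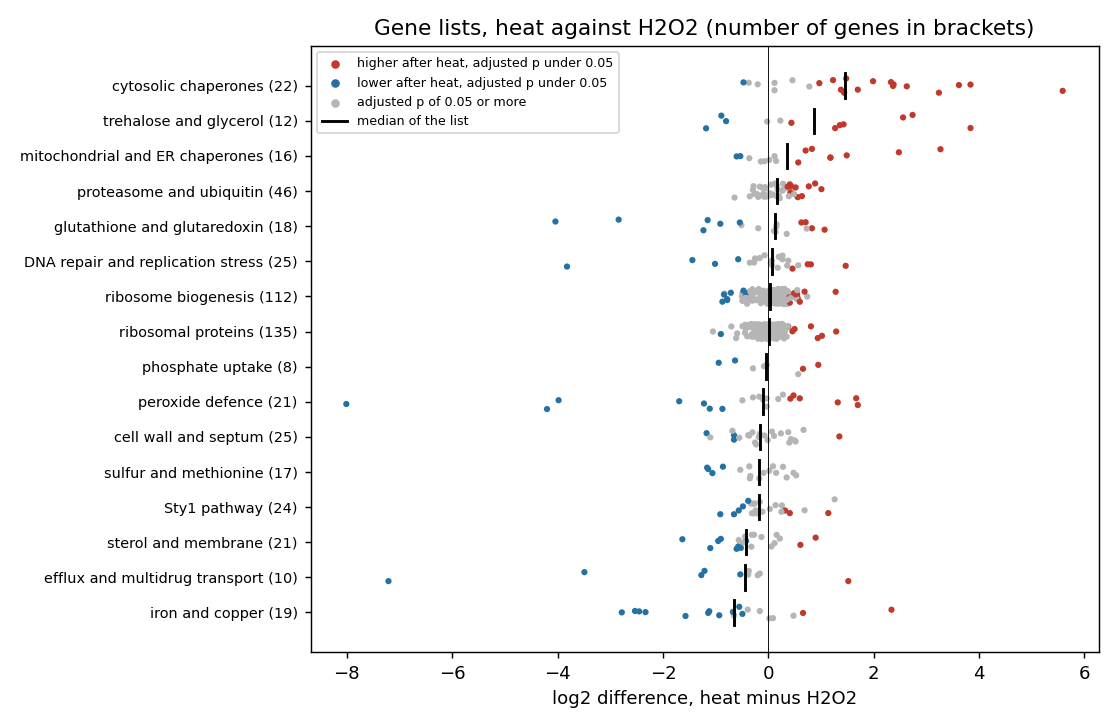
Log2 difference between heat and H2O2 for each gene of 16 lists (one row per list, number of genes in brackets), with genes called higher after heat in red, called lower in blue and not called in grey, and the list median as a black bar. Medians run from 1.46 for cytosolic chaperones at the top to −0.65 for iron and copper genes at the bottom, and the lists for peroxide defence and glutathione hold called genes on both sides of 0. Under library totals the small positive medians of the glutathione, proteasome, ribosome and DNA repair lists turned negative.

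The 12 coding genes with the largest differences towards H2O2 began with osr1, caf5 and SPCC663.08c. The annotated dehydrogenase gene osr1 (SPCC663.06c, start site III:1645897-1645958, minus strand) had 1.74, 1.54 and 2.02 CPM in heat replicates 1 to 3, 444, 261 and 668 CPM in H2O2 replicates 1 to 3 and 4.62, 4.45 and 3.06 CPM in YES replicates 1 to 3. Heat libraries lay below every YES library and H2O2 libraries lay far above. The log2 difference between heat and H2O2 was −8.01 ± 0.38 (edgeR adjusted p 9.83e-10). The spermine transporter gene caf5 (SPBC609.04, start site II:3166556-3166894, plus strand) had 4.94, 4.27 and 3.62 CPM after heat, 655, 558 and 682 CPM after H2O2 and 7.96, 7.74 and 6.86 CPM in YES, a difference of −7.21 ± 0.15 (edgeR adjusted p 9.73e-14). The short chain dehydrogenase gene SPCC663.08c (start site III:1648778-1648867, minus strand) had 19.3, 18.8 and 22.5 CPM after heat, 2870, 1840 and 4230 CPM after H2O2 and 35.7, 33.4 and 27 CPM in YES, a difference of −7.20 ± 0.32 (edgeR adjusted p 3.78e-10). In both dehydrogenase genes the 3 H2O2 libraries spread widely, with replicate 3 highest and replicate 2 lowest.

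The start sites of these 3 genes are shown because osr1 and SPCC663.08c share a long identical stretch. Capitals mark a Pap1-like match in caf5, searched as TTAGTAA or its reverse complement TTACTAA, or as TTACGTAA, which reads the same on both strands, and no such match lay in the lines of the other two. The letters are from RefSeq ASM294v3, 5′ to 3′ on the strand of the gene, ending at the base before the peak, at III:1645932-1646081 (minus strand), III:1648819-1648968 (minus strand) and II:3166431-3166580 (plus strand).
osr1: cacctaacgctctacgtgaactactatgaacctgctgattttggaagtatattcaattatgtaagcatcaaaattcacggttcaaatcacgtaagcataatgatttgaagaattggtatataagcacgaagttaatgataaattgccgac
SPCC663.08c: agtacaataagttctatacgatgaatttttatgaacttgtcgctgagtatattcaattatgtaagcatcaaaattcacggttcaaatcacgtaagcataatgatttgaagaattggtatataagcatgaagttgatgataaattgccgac
caf5: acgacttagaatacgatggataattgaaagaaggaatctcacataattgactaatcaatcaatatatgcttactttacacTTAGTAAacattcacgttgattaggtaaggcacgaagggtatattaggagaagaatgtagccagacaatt
The longest run shared by osr1 and SPCC663.08c was 81 bases, lay 25 to 105 bases before the peak in both genes, and occurred at 2 places in the genome, these ones. A Pap1-like match lay in the window from 250 bp before to 50 bp after the peak of 22 of 54 H2O2-raised coding genes (40.7%), of 24 of 192 heat-raised coding genes (12.5%) and of 612 of all 4881 coding genes (12.5%). The cAMP response element core bound by Atf1, searched as TGACGT on either strand, lay at 4 of 54 H2O2-raised (7.41%), 32 of 192 heat-raised (16.7%) and 309 of all coding genes (6.33%). TTACGTAA and the core share the letters ACGT, and a match here describes letters only.

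Peroxide defence did not move as one group. Of its 21 genes, 6 were called higher and 7 lower after heat than after H2O2, with a median of −0.10. Under library totals the count was 3 higher and 9 lower, with a median of −0.29. The 21 include ccp1 (0.42), one of the 6, and lys7, which the annotation gives as a histone chaperone and a phosphopantetheinyl transferase and not as peroxide defence genes. The call of ccp1 was lost under library totals and without H2O2 replicate 1 or heat replicate 3 (adjusted p 0.124, 0.0590 and 0.0564). The thioredoxin reductase gene trr1 had 279, 346 and 325 CPM after heat, 7150, 6640 and 3680 CPM after H2O2 and 406, 347 and 314 CPM in YES. Heat and YES libraries overlapped, and the difference between heat and H2O2 was −4.20 ± 0.23 (log2; edgeR adjusted p 2.93e-09). The sulfiredoxin gene srx1, whose product revives over-oxidised peroxiredoxin, had 98.0, 55.7 and 64.4 CPM after heat, 1180, 1020 and 1230 CPM after H2O2 and 15.7, 14 and 17.8 CPM in YES, so both stresses lay above YES, with a difference of −3.98 ± 0.20 (edgeR adjusted p 1.33e-09). The catalase gene ctt1 behaved in the same way at a higher level, with 585 ± 72.8 CPM after heat, 1890 ± 211 CPM after H2O2 and 50 CPM in YES, and a difference of −1.69 (edgeR adjusted p 1.18e-07).

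Other antioxidant genes were higher after heat. The glutathione peroxidase gene gpx1 had 1780, 1510 and 1500 CPM after heat, 371, 570 and 562 CPM after H2O2 and 192, 202 and 161 CPM in YES, a difference between heat and H2O2 of 1.67 ± 0.17 (edgeR adjusted p 2.54e-06). The thioredoxin-related chaperone gene pmp20 was higher by 1.70 and the mitochondrial superoxide dismutase gene sod2 by 1.32 (edgeR adjusted p 5.70e-06 and 1.55e-06). The main peroxiredoxin gene tpx1 had 8920 ± 1000 CPM after heat, 9550 ± 929 CPM after H2O2 and 2210 CPM in YES, and the 2 stresses were not called different (−0.10 ± 0.13; edgeR adjusted p 0.636). The gene of the factor Pap1 itself was slightly higher after heat, with 20.5 ± 1.55 CPM against 13.6 ± 1.99 CPM after H2O2 (edgeR adjusted p 0.00903), a call that was lost under library totals (adjusted p 0.0769).

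Glutathione genes split in a like manner, 4 higher and 6 lower after heat among 18, with a median of 0.12 that turned to −0.07 under library totals. The glutathione S-transferase gene gst2 had 56.6, 87.3 and 72.4 CPM after heat, 1200, 1180 and 1170 CPM after H2O2 and 73.7, 63.3 and 69.5 CPM in YES. Heat libraries overlapped YES, and the difference between heat and H2O2 was −4.04 ± 0.17 (log2; edgeR adjusted p 2.11e-10). The quinone dehydrogenase gene obr1 had 616 ± 9.46 CPM after heat and 4410 ± 740 CPM after H2O2 (−2.84), and gcs1, the rate-limiting enzyme of glutathione synthesis, 146 ± 8.98 and 324 ± 36.3 CPM (−1.15; edgeR adjusted p 1.60e-09 and 6.12e-06). In the pentose phosphate pathway, which supplies NADPH, the enzyme of the initial step, zwf1, was lower after heat (−1.23; edgeR adjusted p 0.000143) and the later enzyme gnd1 was higher (1.07; edgeR adjusted p 0.00301).

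Efflux and multidrug transporters were lower after heat in 5 of 10 cases and higher in 1, with a median of −0.45. Besides caf5 these were bfr1, an ABC transporter that exports brefeldin A, with 20, 19.6 and 19.4 CPM after heat, 177, 197 and 292 CPM after H2O2 and 20.4, 25.5 and 22.6 CPM in YES (−3.49 ± 0.18; edgeR adjusted p 1.68e-09) and, with smaller differences of −1.27 and −0.53, mfs2 and the vacuolar amino acid transporter gene fnx1. The fifth gene, car1 (−1.21), is annotated as an arginase and not as a transporter. The exception mfs1 moved to opposite sides of YES, with 76.2 ± 7.88 CPM after heat, 26.7 ± 1.16 CPM after H2O2 and 46.2 CPM in YES (1.52; edgeR adjusted p 2.15e-07). The remaining coding genes with the largest differences in this direction were SPAC29B12.14c, annotated as a purine transporter (−5.95), SPAC750.01, an aldo/keto reductase (−5.56), yhb1, a nitric oxide dioxygenase (−3.49), urg2 (−3.10) and hhy1 (−3.04). SPAC750.01 had 0.774, 0.559 and 0.488 CPM after heat and 14.9, 22.2 and 47.9 CPM after H2O2, and without H2O2 replicate 3 its difference was −4.95 (edgeR adjusted p 5.12e-08).

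Of 24 genes of the Sty1 pathway, 3 were higher and 5 lower after heat than after H2O2, with a median of −0.18. These shares of 12.5% and 20.8% stand beside 15.7% and 12% over all genes. The kinase gene sty1 had 252 ± 33.8 CPM after heat and 329 ± 40.9 CPM after H2O2 (−0.38; edgeR adjusted p 0.0433). That call was lost without H2O2 replicate 1 or 3 or heat replicate 1 or 2 (adjusted p 0.0720, 0.168, 0.142 and 0.127), with RLE factors (0.0520) and with a replicate block (0.0652). The gene wis1, which codes for the kinase that activates Sty1, was lower (−0.48; edgeR adjusted p 0.00727). The phosphatase gene pyp2, which turns Sty1 off, was higher after heat, with 27.9 ± 2.50 CPM against 12.7 ± 5.81 CPM after H2O2 (1.14; edgeR adjusted p 0.0150), a call lost without heat replicate 3 (adjusted p 0.0521). The transcription factor gene atf1 had 319 ± 57.0 CPM after heat and 364 ± 18.1 CPM after H2O2 and was not called (edgeR adjusted p 0.601), though both stresses lay above its 133 CPM in YES.

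Genes for the uptake of iron made up most of the metal genes that were lower after heat. Of 19 iron and copper genes, 11 were called lower and 2 higher after heat than after H2O2, with a median of −0.65. The list also held zinc genes, of which the transporter gene zrt1 (−0.93) and the regulator gene loz1 (−0.67) are among the 11. The call of loz1 was lost without H2O2 replicate 2 or 3 or heat replicate 2 (adjusted p 0.0588, 0.122 and 0.121). The siderophore transporter gene str3 had 3.87, 4.41 and 3.27 CPM after heat, 28.9, 28.2 and 22.7 CPM after H2O2 and 16.8, 13.9 and 22.1 CPM in YES (−2.78 ± 0.25; edgeR adjusted p 6.61e-07). The iron permease gene fip1 had 7.65, 7.55 and 8.64 CPM after heat, 36.0, 42.9 and 58.9 CPM after H2O2 and 52.3, 55.2 and 49.6 CPM in YES (−2.53 ± 0.17; edgeR adjusted p 1.98e-08). In both genes the heat libraries lay below every other library. As whole genes, the siderophore synthesis genes sib1 and sib2 had another order: both stresses lay above YES and H2O2 lay highest. For sib2 the means were 154 ± 12.9 CPM after heat, 340 ± 25.2 CPM after H2O2 and 103 CPM in YES (−1.14; edgeR adjusted p 2.26e-06). The 5′ end of sib1 had 11.1 CPM after heat, 38.6 CPM after H2O2 and 7.92 CPM in YES. Sites in its coding exon added 6.42 and 1.59 CPM after heat, against 0.42 and 0.506 CPM after H2O2 and 0.314 and 0.405 CPM in YES. Much of the rise of sib1 after heat over YES thus lay at these internal sites. The call of sib1 was lost without H2O2 replicate 3 (adjusted p 0.0559). The metallothionein gene zym1 went the other way, with 592 ± 151 CPM after heat, 117 ± 21.3 CPM after H2O2 and 42.7 CPM in YES (2.34; edgeR adjusted p 9.35e-07).

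The sterol, sulfur and cell wall lists stand beside 15.7% higher and 12% lower over all genes. Of 21 sterol and membrane genes, 8 were lower and 2 higher (median −0.42), led by the sterol oxidase gene erg25 with 259 ± 34.5 CPM after heat, 801 ± 224 CPM after H2O2 and 851 CPM in YES (−1.63; edgeR adjusted p 5.75e-05). Of 17 sulfur and methionine genes, 4 were lower and none higher (median −0.17), among them the methionine synthase gene met26 (−1.16; edgeR adjusted p 0.000349). Of 25 cell wall and septum genes, 3 were lower (12%, the share over all genes) and 1 higher (median −0.16). The glucanase gene eng1, which separates daughter cells, was lower (−1.17) and the glucanosyltransferase gene gas2 higher (1.35; edgeR adjusted p 0.000195 and 4.93e-06).

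Of 25 DNA repair and replication genes, 4 were higher and 4 lower after heat, with a median of 0.07 that turned to −0.12 under library totals. These shares of 16% each are near those over all genes. The ribonucleotide reductase gene cdc22 had 303 ± 42.1 CPM after heat, 820 ± 32.6 CPM after H2O2 and 1120 CPM in YES (−1.44; edgeR adjusted p 2.26e-06). The Wee1-like kinase gene mik1 was near the floor after heat, at 0.29, 0 and 0.0697 CPM, with 0.956, 2 and 1.63 CPM after H2O2 and 2.19, 4.72 and 3.53 CPM in YES (−3.82; edgeR adjusted p 0.000679). Its difference was −5.22 without heat replicate 1 and −3.19 without heat replicate 2. Phosphate uptake gave 2 higher and 2 lower of 8 (median −0.05), and the transporter gene pho84 was low after both stresses, with 76.6 ± 17.9 CPM after heat and 80.8 ± 26.3 CPM after H2O2 against 946 CPM in YES.

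Few ribosomal protein genes were called between the stresses. Of 135 ribosomal protein genes, 7 were higher and 1 lower after heat with a median of 0.02, and under library totals 4 were higher and 14 lower. Of 112 ribosome biogenesis genes, 10 were higher and 8 lower with a median of 0.04, and under library totals 2 were higher and 16 lower. Against YES, 85 of the 112 were called lower after heat and 77 after H2O2, with medians of −0.78 and −0.91. The few with a direct difference included nop12, a ribosome assembly factor, which had 27.5 ± 1.59 CPM after heat, 11.3 ± 0.128 CPM after H2O2 and 27.5 CPM in YES (1.28; edgeR adjusted p 0.000176).

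A total of 43 genes were called on opposite sides of YES, 15 up after heat and down after H2O2 and 28 the other way round. The largest direct differences among these were osr1, SPCC18B5.02c, caf5, SPCC663.08c and SPAC29B12.14c, all down after heat and up after H2O2. The fall of SPCC663.08c after heat was near the threshold (log2 −0.66 against YES, edgeR adjusted p 0.0473), and its 5′-end site alone was not called lower than YES. SPCC18B5.02c, annotated as a pseudogene, had 1.45, 2.24 and 1.88 CPM after heat, 345, 261 and 348 CPM after H2O2 and 3.12, 3.38 and 2.81 CPM in YES (−7.39 ± 0.23; edgeR adjusted p 1.50e-11). The other way round, SPBC19C7.04c had 100, 106 and 99.8 CPM after heat, 11.8, 9.42 and 8.41 CPM after H2O2 and 18.8, 17.4 and 23.9 CPM in YES. Its 3 groups did not overlap. The low gene mug37 and the noncoding RNA gene SPNCRNA.1190 showed the same order, with direct differences of 3.53 and 3.17 (edgeR adjusted p 6.45e-06 and 2.34e-09). The only site of mug37 lay inside a coding exon.

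Among noncoding RNA genes a larger share was called than among coding genes, and this difference in shares was not tested. Of 926 noncoding RNA genes, 24% were higher and 13.5% lower after heat than after H2O2, against 14.2% and 11.8% of 4881 coding genes. The largest differences upwards were in SPNCRNA.757, which had 205, 466 and 341 tags after heat against 3, 6 and 1 tags after H2O2 (log2 7.11 ± 0.42; edgeR adjusted p 6.87e-09), SPNCRNA.1541 (6.56), SPNCRNA.574 (5.98) and SPNCRNA.1475 (5.93). The difference of SPNCRNA.1541 was 7.37 without H2O2 replicate 2. The peak of SPNCRNA.757 lay 40 bp from the 5′-end peak of ssc1 on the other strand, and ssc1, a mitochondrial Hsp70 gene, had 3390 CPM after heat and 2060 CPM after H2O2 there. In the other direction, SPNCRNA.453 had 2, 4 and 11 tags after heat against 247, 312 and 459 tags after H2O2 (−5.36 ± 0.33; edgeR adjusted p 8.62e-09), or −6.17 without heat replicate 3, and was followed by SPNCRNA.1179 (−4.69), SPNCRNA.892 (−1.92) and SPNCRNA.472 (−1.87).

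Several of these RNAs started back to back with a coding gene that differed in the same direction. The start-site peak of SPNCRNA.1541 lay 595 bp from that of hsp16 on the other strand, and the peak of SPNCRNA.472 lay 144 bp from that of bfr1. The peak of SPNCRNA.453 lay 417 bp from that of the catalase gene ctt1, likewise on the other strand and pointing away. SPNCRNA.1475 lay 138 bp from a start site inside the coding exon of tra1 that averaged 6.19 CPM after heat against 0.0933 CPM after H2O2.

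At the level of start sites, 1819 clusters were higher and 1472 lower after heat, which was 14% and 11.3% of 13003, or 25.3% together (edgeR quasi-likelihood test on cluster counts, adjusted p under 0.05), and scaling by library totals turned 55.3% higher into 35.5%. A called difference of at least 1 on the log2 scale was reached by 15.6% of sites, 8.99% higher and 6.58% lower after heat. Against YES, 33.6% of sites were called after heat (18.2% higher, 15.4% lower) and 15.4% after H2O2 (9.43% higher, 5.95% lower). By the same rule as for genes, 1011 sites were heat-raised, 330 H2O2-raised, 369 heat-lowered and 41 H2O2-lowered. Only 157 of the heat-raised sites (15.5%) and 48 of the H2O2-raised sites (14.5%) lay at an annotated mRNA 5′ end, that is, up to 100 bp from it. Heat-raised sites made up 3.38% of the 4649 sites at mRNA 5′ ends, 9.35% of the 2632 sites in coding exons, 11.6% of the 886 sites antisense to a coding gene and 12.3% of the 2520 sites in noncoding genes or pseudogenes. H2O2-raised sites made up 1.03%, 2.58%, 5.98% and 3.21% of these kinds.

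The sites away from mRNA 5′ ends with the largest differences had few or no tags in the lower group. A site in SPNCRNA.1064 (I:5267855-5267958, plus strand) had 60, 92 and 110 tags in heat replicates 1 to 3 and 0 in each H2O2 library, which makes it at least 40.1-fold higher after heat against a floor of 3 counts per library (0.162 CPM on average). A site of SPNCRNA.1063 (I:5267555-5267719, minus strand), whose peak lay 287 bp away and which points away from it, had 140, 353 and 194 tags after heat against 2, 0 and 4 after H2O2. Its log2 difference was 7.25 ± 0.54 (edgeR adjusted p 1.48e-08), or 6.6 without H2O2 replicate 2 and 8.06 without H2O2 replicate 3. Both sites of this back-to-back pair were thus near the floor after H2O2. A site in SPNCRNA.5093 (II:1248336-1248381, minus strand) had 94, 82 and 152 tags after heat and 0, 1 and 2 tags after H2O2, a ratio of 160 with an exact 95% interval of 54.1 to 778 that covers counting error only. Its log2 difference was 7.15, or 7.89 without H2O2 replicate 3. A site in the coding exon of SPAC664.13 (I:1729657-1729804, plus strand) had 49, 456 and 496 tags after heat and 3, 4 and 4 after H2O2, so heat replicate 1 stood well below the other heat libraries.

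In the other direction, a site antisense to SPCC663.09c (III:1649552-1649650, plus strand), whose peak lay 773 bp from that of SPCC663.08c on the other strand, had 0, 0 and 1 tags after heat, 650, 724 and 1330 tags after H2O2 and 0, 1 and 0 tags in YES. The ratio of H2O2 to heat was 1850 with an exact 95% interval of 332 to 73200, and the log2 difference was −10.49, or −12.65 without heat replicate 3, which held the single tag. The tags of this site were counted to the gene trm44 (SPCC663.10). The gene that the site overlaps on the other strand did not show this order, since SPCC663.09c had 389 CPM after heat and 202 CPM after H2O2 at its own 5′ end. A site in the coding exon of sec72 (I:4389172-4389266, minus strand) had 0, 4 and 1 tags after heat and 237, 231 and 811 tags after H2O2 (−7.35 ± 0.63; edgeR adjusted p 2.09e-07), or −6.68 without H2O2 replicate 3 and −8.84 without heat replicate 2. A site upstream of SPAC29B12.14c (I:5442171-5442630, minus strand) held most tags of that gene, with 24, 41 and 48 after heat and 4298, 4804 and 6701 after H2O2 (−6.62 ± 0.21; edgeR adjusted p 1.37e-13). Sites antisense to ugp1, pgt1 and mrs3 had at most 9 tags in any heat library and at least 120, 78 and 543 tags in every H2O2 library, in that order.

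Start-site usage, which is how the tags of a gene divide among its sites, differed between heat and H2O2 in 494 of 1457 genes with at least 2 sites holding 10% of the tags (33.9%; edgeR diffSpliceDGE with Simes' method per gene, adjusted p under 0.05). A site was tested if its mean share reached 10% in any of the heat, H2O2 and YES groups. Some sites thus entered only through the group where they are high. The counts in this paragraph depend in part on that choice and are a description. Of these, 230 were not called as whole genes, and in 130 the most used site was a different one. The share of a site changed by at least 20 percentage points in 239 genes. Heat was the stress farther from YES in 384 of the 494. Among 326 of them that had exactly 2 tested sites, the downstream one gained share after heat in 208 and the upstream one in 118.

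Of the 10 genes with the largest changes of usage, 7 gained share after heat at a site inside a coding exon. In cut3, a condensin subunit gene, a site in the coding exon (II:1002904-1003231, minus strand) held 80.7%, 76.5% and 78.1% of the tags in heat replicates 1 to 3, 3.85%, 5.16% and 4.51% in H2O2 replicates 1 to 3 and 4.83%, 5.59% and 3.17% in YES replicates 1 to 3 (adjusted p 4.87e-13, edgeR diffSpliceDGE). The site averaged 163 CPM after heat against 2.12 CPM after H2O2, while the mRNA 5′ end of cut3 had 42.7 CPM after heat and 43.6 CPM after H2O2 (log2 difference −0.03; edgeR adjusted p 0.928). The whole gene was called higher after heat by 2.13 (edgeR adjusted p 7.09e-08), while its annotated 5′ end was not called.

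The same was found in pck1, a protein kinase C gene, where a coding-exon site (I:2369337-2369617, minus strand) took 47.5%, 56.1% and 52.9% of the tags after heat, 1.57%, 1.04% and 0.721% after H2O2 and 2.83%, 1.51% and 2.40% in YES. Its 5′ end had 29.7 CPM after heat and 27.5 CPM after H2O2 (0.11; edgeR adjusted p 0.599). In wat1, which codes for a subunit of the TOR kinase complexes, the site at II:1663051-1663460 (plus strand) took 44.8%, 66.9% and 56.4% after heat and 2.06%, 2.93% and 2.86% after H2O2. In SPAC22A12.14c the coding-exon site at I:1181719-1181981 (minus strand) took 77.6%, 78.0% and 80.7% after heat and 3.53%, 4.47% and 6.22% after H2O2, and here the 5′ end was lower after heat (−1.19; edgeR adjusted p 3.93e-06).

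The splicing factor gene prp2 (60.9% after heat against 6.04% after H2O2 on average), SPBC14F5.10c (82.1% against 28.1%, with 46.1% in YES) and the replication checkpoint kinase gene cds1 (67.7% against 15.6%) also gained share at a coding-exon site. SPNCRNA.1063 (59.3% against 0.492%), SPBC1685.12c (60.7% against 5.86%, at a site antisense to a coding gene) and SPAC4H3.01 (87.1% against 35.6%, at a site in the 5′ UTR) did so at sites of other kinds. In these 10 genes the 3 heat libraries did not overlap the 3 H2O2 libraries in the share of the site.

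**Figure D4:**
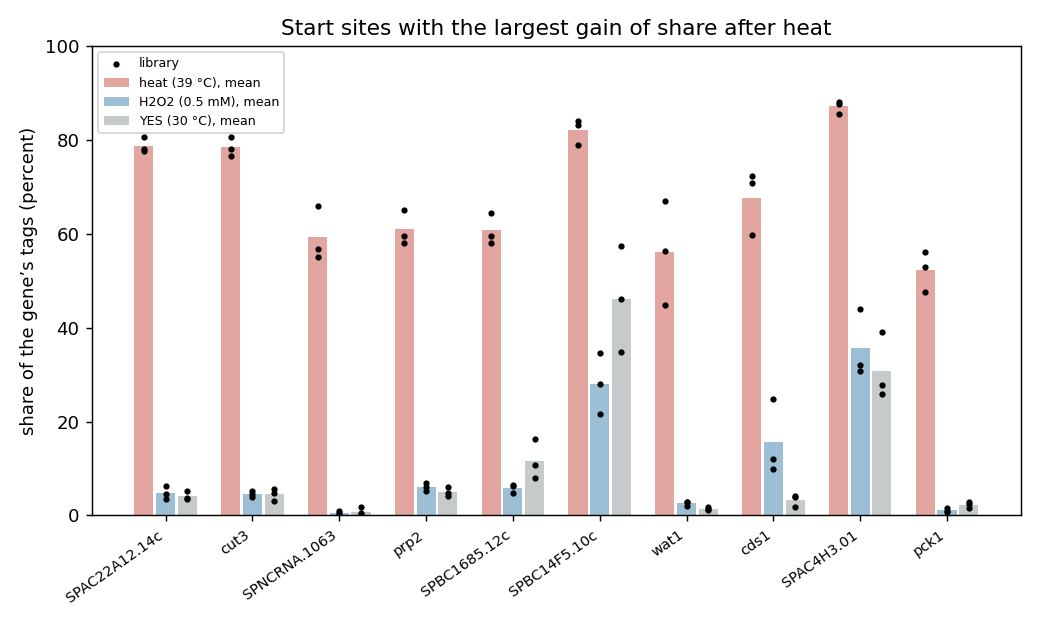
Share of the gene's tags at the site that gained most after heat, in percent, for the 10 genes with the largest changes of usage, with bars for group means (heat red, H2O2 blue, YES grey) and black points for single libraries. Heat shares average 52.2% to 87.1%, and in 8 of the 10 genes the H2O2 share averages at most 15.6%.

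Some stress-raised sites lay inside coding exons. Coding exons held 246 of the 1011 heat-raised sites, 68 of the 330 H2O2-raised sites and 2632 of all 13003 sites. Their part of each class was thus not far from their part of all sites. The heat-raised coding-exon sites belonged in 217 cases to 200 genes that also had a site at the mRNA 5′ end. That 5′ end was called higher after heat in 48 of the genes, lower in 21 and not called in 131. The median log2 difference was 2.41 for the internal sites, which were chosen for being high, and 0.10 for the 5′ ends, which were not. The internal sites together outweighed the 5′ end after heat in 39 of the 200 genes. The H2O2-raised coding-exon sites belonged in 65 cases to 53 genes with a site at the mRNA 5′ end. That 5′ end was called higher after H2O2 than after heat in 18 of these genes, lower in 2 and not called in 33. Of the 192 coding genes in the heat-raised class, 164 had a site at the mRNA 5′ end, and in 30 of these the 5′ end was not called higher. A pyrimidine followed by a purine, the usual letters at a true start, stood at the peak of 79.7% of the heat-raised coding-exon sites, 66.2% of the H2O2-raised ones and 48.1% of all sites in coding exons. At the main sites of coding genes the share was 97.6%, and whether every site inside a coding exon is a true start was not tested.

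Heat shock element pairs were found near many of the heat-raised internal sites, most often 50 to 75 bp upstream. In the window from 250 bp before to 50 bp after the peak, a pair lay at 132 of the 246 heat-raised coding-exon sites (53.7%), at 16 of the 68 H2O2-raised ones (23.5%) and at 742 of all 2632 (28.2%). The Pap1-like letters lay at 19 of the 68 H2O2-raised coding-exon sites (27.9%), 15 of the 246 heat-raised ones (6.10%) and 225 of all (8.55%). Matches whose middle lay 50 to 75 bp upstream of the peak numbered 26.4 per 100 heat-raised coding-exon sites, against 2.56 per 100 other coding-exon sites. At the main start sites of coding genes the same stretch held 16.1 matches per 100 heat-raised genes and 1.39 per 100 others. In the other bins of 25 bp, heat-raised coding-exon sites had 2.85 to 9.35 matches per 100.

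Of the 7 coding-exon sites among the 10 genes with the largest usage changes, 4 had a pair within 150 bp before the peak, and these are shown because they lie inside a reading frame. The sites in prp2, SPBC14F5.10c and cds1 had none there. Capitals mark the matches, which in cut3 and pck1 overlap to form 3 alternating repeats, and the lines run 5′ to 3′ on the strand of the gene up to the base before the peak (RefSeq ASM294v3). They cover I:1181901-1182050 (minus strand), II:1003111-1003260 (minus strand), II:1663034-1663183 (plus strand) and I:2369516-2369665 (minus strand).
SPAC22A12.14c internal site: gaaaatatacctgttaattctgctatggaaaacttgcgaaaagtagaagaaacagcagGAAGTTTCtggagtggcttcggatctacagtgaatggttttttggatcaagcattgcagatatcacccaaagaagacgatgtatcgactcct
cut3 internal site: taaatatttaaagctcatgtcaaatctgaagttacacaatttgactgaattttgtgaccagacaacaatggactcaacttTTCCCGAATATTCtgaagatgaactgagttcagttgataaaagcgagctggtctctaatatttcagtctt
wat1 internal site: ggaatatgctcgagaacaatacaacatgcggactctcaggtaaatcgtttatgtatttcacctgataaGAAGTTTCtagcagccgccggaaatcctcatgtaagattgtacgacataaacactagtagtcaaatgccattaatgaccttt
pck1 internal site: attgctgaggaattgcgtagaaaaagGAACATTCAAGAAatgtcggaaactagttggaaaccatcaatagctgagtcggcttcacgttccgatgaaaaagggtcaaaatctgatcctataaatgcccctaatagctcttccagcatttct
Matches to 3 such repeats, which contain the pair, lay at 11 of the 246 heat-raised coding-exon sites (4.47%) and 26 of all 2632 coding-exon sites (0.988%), and at 10 of the 192 heat-raised coding genes (5.21%) and 25 of all 4881 coding genes (0.512%).

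**Figure D5:**
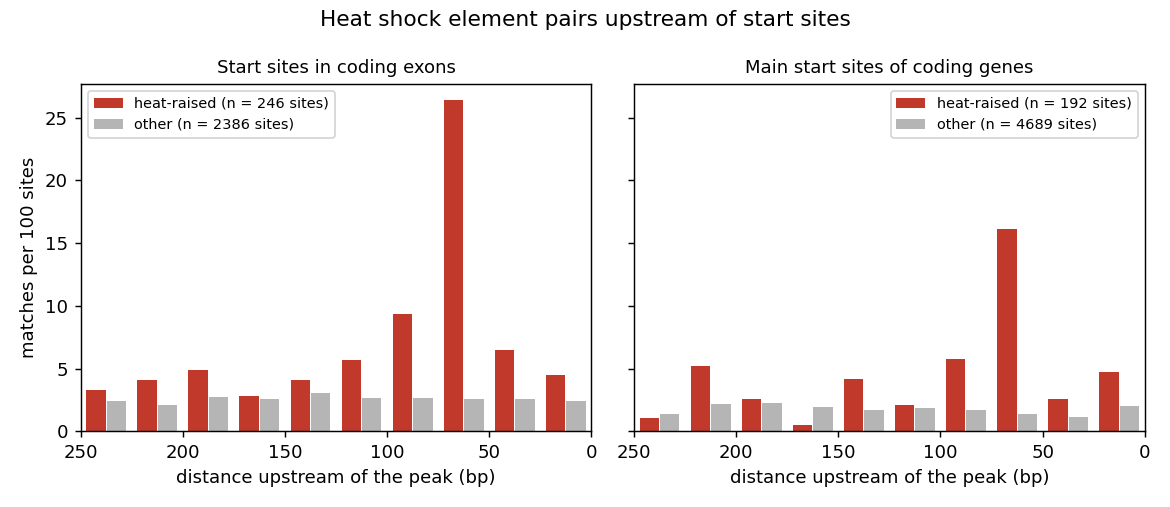
Matches to a heat shock element pair per 100 start sites (vertical axis) by distance upstream of the start-site peak in bins of 25 bp (horizontal axis, the peak at 0 on the right), for heat-raised sites in red and all other sites in grey, in coding exons (246 and 2386 sites) and at the main sites of coding genes (192 and 4689 sites). Both panels have their highest red bar at 50 to 75 bp, 26.4 and 16.1 matches per 100 sites, where the grey bars stand at 2.56 and 1.39.

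Some heat-raised sites came in divergent pairs. A heat-raised site on the other strand, pointing away with its peak 0 to 300 bp upstream, accompanied 69 of the 246 heat-raised coding-exon sites (28%) and 17 of the 2386 other coding-exon sites (0.712%). At mRNA 5′ ends these shares were 30 of 157 (19.1%) and 61 of 4492 (1.36%). An H2O2-raised partner accompanied 10 of the 68 H2O2-raised coding-exon sites (14.7%) and 5 of the 2564 others (0.195%). Within such pairs both members were chosen for the same direction of difference, so these shares are a description and were not tested.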

How the data were processed

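Counts of tags for genes and for start-site clusters were used as the authors deposited them, whole numbers with no normalization. A deposited table of log2 values for genes (near log2 CPM) served only as an alternative with limma 3.58.1, and the authors' deposited cluster list gave cluster positions, while its signal column, from the values a mean CPM, was not tested. Per the submitters' processing notes, CASAVA 1.6, Bowtie 0.12.7 and build ASM294v2 were named, and how tags were clustered and counted is not given in the sources used here. Of the value columns, 0 could not be matched to a library. Cluster coordinates, counted from 1, were checked against RefSeq ASM294v3: a pyrimidine-purine step lay at 85.1% of peaks, and at 4.71% and 2.84% with the peaks moved by −1 and 1 bp. In 125 windows along the chromosomes the lowest share was 74.4%.

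All 15 libraries entered one edgeR 4.0.16 quasi-likelihood fit in R 4.3.3 (robust, TMM, filterByExpr, Benjamini-Hochberg, threshold 0.05), and the filter removed no gene. CPM are per 1000000 tags with TMM factors. SE is the absolute log2 difference divided by the square root of F. The scripts were tested on simulated data. Gene names come from RefSeq, where 5830 genes were found under their locus tag and 7 under an older one. Clusters were assigned to genes by matching sums of counts, and 18 genes had a near copy of the first 27 nt (up to 2 mismatches), none of them named in the report.

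Named coding genes were the 12 with the largest differences each way among those called, with at least 5 CPM in the higher group and no overlap between heat and H2O2 libraries. For noncoding RNA genes it was 4 each way, for genes called on opposite sides of YES up to 8, for sites away from mRNA 5′ ends 6 each way, and for usage 10 genes with at least 20 CPM in both groups. Of the 16 gene lists, 12 symbols had no match. Members, lists and motifs were chosen with earlier results of these data known. Alternatives were DESeq2 1.42.0, RLE factors, library totals, stricter filters, fewer groups, a replicate block and leaving out each library. No molecular identifiers are stated, so tags may be copies of a molecule, and intervals and floors hold for counting error alone.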

Additional observations from a re-analysis of the deposited data

How the results depend on the processing

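The direct comparison of genes called 1629, and 1203 to 1474 without each library in turn. Asking for a log2 difference of at least 1 lowered it to 610 genes, and for start sites (3291) to 2024. In what follows the classes include genes on opposite sides of YES, which gives 362 heat-raised, 137 heat-lowered, 94 H2O2-raised and 24 H2O2-lowered genes. A mean of at least 5 CPM left 1605 start sites and 231 heat-raised genes, since fewer features were tested. Library totals gave 259 heat-lowered genes. Without each library in turn, counts were 2129 to 2209 for heat against YES, 913 to 1068 for H2O2 against YES, 2635 to 3031 for start sites, 431 to 450 for usage, and 337 to 373, 120 to 145, 85 to 101 and 17 to 26 for heat-raised, heat-lowered, H2O2-raised and H2O2-lowered genes. DESeq2 called 1778 genes and limma on the deposited log2 values 1691. Recomputed were the named genes, sites and usage results, the list members called with a log2 difference of at least 1, and those with smaller differences that the text gives with a value. Of these values under the alternatives, 4136 kept their call, 90 lost it and 25 gained it, and no called one changed direction. In the direct comparison the lost calls were of ccp1, loz1, pap1, pyp2, san1, sib1, sty1, sua1 and zuo1. Other list members were recomputed under library totals only, as counts and medians. The replicate numbers did not pair the samples: same-numbered heat and H2O2 libraries had deviations correlated at −0.223, 0.273 and 0.234, and a replicate block gave 1522 genes, 1497 of them shared with the fit without it. Depth limits genes near 3 counts, such as mik1.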
